A study of Mus musculus with 8 samples.

Results

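The S100 genes encode small calcium-binding proteins of the EF-hand type, and 10 of them were followed here in brown adipose tissue (BAT), the heat-producing fat depot of rodents: S100a1, S100a4, S100a6, S100a8, S100a9, S100a10, S100a11, S100a13, S100a16 and S100b. The genes were chosen by name from the 31053 genes of a table of raw counts, and the list was drawn up with the difference between the genotypes in view, so what follows on that difference is a description of these genes, without a test. WT mice were C57BL6/J, and db/db mice were B6.BKS(D)-Leprdb/J, which carry a mutation of the leptin receptor gene in every cell, overeat and become obese and diabetic. The authors' methods name Charles River as the source of WT mice and Jackson for db/db mice, while their resource list names Jackson for both. If the suppliers differed, supplier and genotype cannot be told apart. BAT of 4 male mice of each genotype was taken at 8 weeks of age after a fast, and RNA of the bulk tissue was sequenced, 1 library per mouse. A second label names the stromal vascular fraction, but the mature adipocyte genes Fabp4, Adipoq, Cidea and Ucp1 were abundant in every library, and the samples are called BAT here.

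Most S100 proteins work as pairs of like or unlike subunits. On binding calcium they expose a surface that docks onto target proteins, among them annexins, the cytoskeleton and signalling proteins, and several are also released from cells and bind the receptors RAGE (Ager) and TLR4. Different members are known from different cells: S100A8 and S100A9 from neutrophils and monocytes, S100A4 and S100A6 from fibroblasts, macrophages and other motile cells, S100A1 from muscle, and S100B from glial cells and adipocytes.

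Most of the genes lie together in the genome, and the motifs searched differ between their promoters. Bases before the RefSeq start of transcription are shown for S100a6 and S100a4, neighbours with the largest rises, for S100a11, the most motif-rich, for S100a8, which has a TATA box as S100a4 does, and for the stretch shared by S100a1 and S100a13, which are read in opposite directions. All run 5′ to 3′ on the plus strand of chromosome 3, from RefSeq on GRCm38.p6, with capitals for the TATA box (letters searched: TATAAA), the GC box (GGGCGG) and the AP-1 motif (TGANTCA).
S100a6, chr3:90612774-90612881: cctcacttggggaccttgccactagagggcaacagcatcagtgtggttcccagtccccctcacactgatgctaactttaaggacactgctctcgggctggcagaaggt
S100a4, chr3:90603650-90603769: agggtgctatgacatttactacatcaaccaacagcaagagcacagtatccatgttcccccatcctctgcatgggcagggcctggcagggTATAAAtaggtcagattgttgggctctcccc
S100a8, chr3:90669031-90669060: agctttcctcTATAAAagcagctgacactt
S100a11, chr3:93520376-93520487: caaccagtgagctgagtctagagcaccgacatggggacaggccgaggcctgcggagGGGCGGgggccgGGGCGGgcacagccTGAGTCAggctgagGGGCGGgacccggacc
S100a1-S100a13, chr3:90514393-90514434: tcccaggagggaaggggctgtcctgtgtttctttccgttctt

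Windows of 250 bases before a RefSeq start were given for 9 of the 10 genes and not for S100a10, and motifs were sought on both strands. TATAAA was found in S100a4 and S100a8, starting at position −31 and −30 from the start. On the gene's own strand and 40 to 20 bases before the start it was present in 1.99% of all 32851 windows, and anywhere on either strand in 12.4%. GGGCGG occurred 3 times in S100a11 and was also found in S100a9 and S100a16 (32.7% of all windows), and TGANTCA occurred in S100a11 and S100a16 (6.75%). CCAAT was found in S100a6 and S100b (33.9%), GAGGAAGT, a PU.1 motif, in S100a8 (2.44%), and TTNNGCAA, a C/EBP motif, in S100a9 (9.56%). AGGTCA, bound by nuclear receptors, was found in S100a4, S100a11 and S100a16 (14.02%), and in S100a4 it follows the TATA box without overlapping it. S100a1 and S100a13 held none of these 7 motifs, and the 250-base windows of S100a6 and S100a4 had no motif in common. GENCODE places the start of S100a8 further upstream. These matches describe letters, not binding.

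Libraries held 2374079 to 2615009 counts in WT and 2382722 to 3240074 in db/db. Levels are given in CPM (counts scaled to a common library size and for library composition), and 3 counts, taken as the smallest detectable level, correspond to 0.902 to 1.33 CPM. No library held a count of Lepr, which leaves the genotype labels without that check. Skeletal muscle genes differed strongly among libraries, with a sum over 12 genes of 406 to 1410 CPM in WT and 2037 to 10228 CPM in db/db, highest in db/db 1. In bulk tissue, fewer cells of a type and less RNA per cell cannot be told apart, nor can more of either.

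S100a6 was the member with the largest difference, and S100a4, S100a8, S100a10, S100a11, S100a13, S100a16 and S100b rose with it. Each of these 8 genes had an adjusted p under 0.05 in the edgeR fit over all genes and was higher in every db/db library than in every WT library. S100a1 and S100a9 did not pass, and their genotypes overlapped. No member fell with edgeR, DESeq2 or limma-voom, nor did any at an unadjusted p under 0.05. Across all 9264 genes tested, 15.8% passed as higher in db/db, 11.9% passed as lower, and 15.3% had all db/db libraries above all WT libraries. Because the list was made from this contrast, nothing is read from the members' count beside these shares. The median log2 fold change of the 10 members was 1.55 and that of all genes tested 0.01. All 10 passed the filter on low counts, but S100a4, S100a8 and S100a9 passed only through their db/db libraries.

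**Figure D1:**
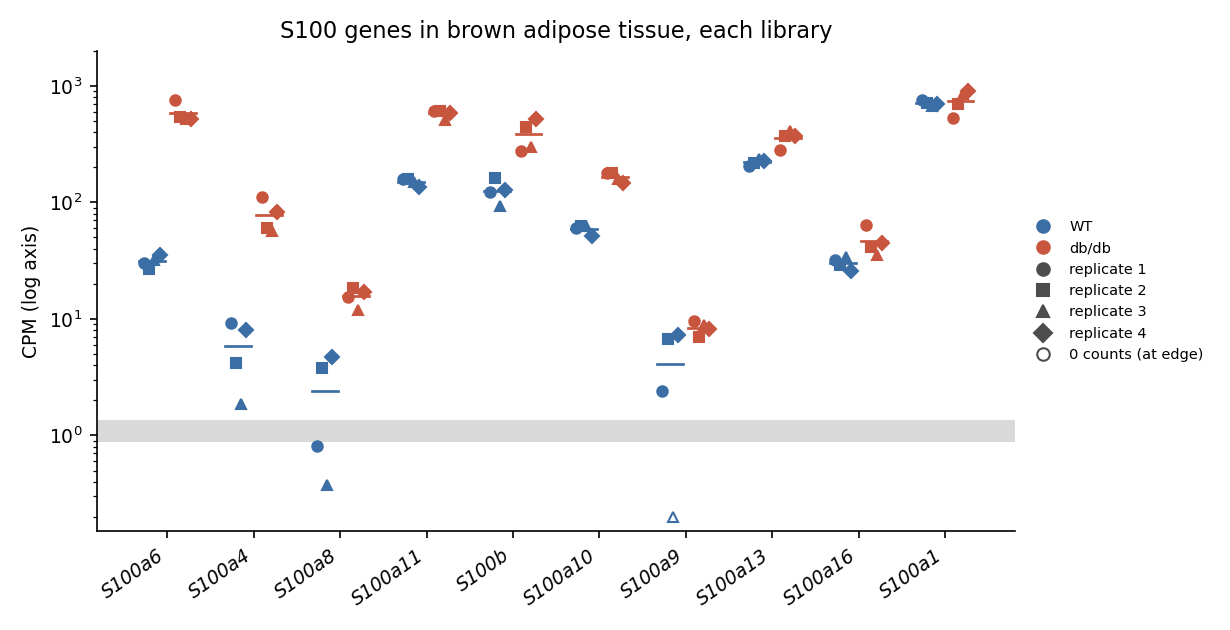
Level of each S100 gene in each library, in CPM on a log axis, with WT in blue, db/db in red, a marker shape per replicate, a line at the mean of 4 and a grey band at 3 counts. S100a6 lies at 26.6 to 35.2 CPM in WT and at 516 to 762 CPM in db/db, while S100a1 and S100a9 overlap between the genotypes.

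S100A6, or calcyclin, binds annexins and the calcyclin-binding protein CACYBP and is found in proliferating and mesenchymal cells. S100a6 (ENSMUSG00000001025, chr3:90612882-90624181 on mm10) measured 30.4, 26.6, 32.3 and 35.2 CPM in WT 1 to 4 and 762, 536, 516 and 522 CPM in db/db 1 to 4. The db/db libraries lay far above the WT libraries, and db/db 1 stood above the other db/db libraries, which were close together. The means were 31.1 ± 3.63 CPM in WT and 584 ± 119 CPM in db/db (SD, n = 4 each), an 18.7-fold difference, with 16.6 to 21.1 at 1 SE either way (log2 fold change 4.23 ± 0.17, SE). It ranked 39 among all genes tested by log2 fold change. The log2 fold change was 4.07 without db/db 1. It was 3.80 in a fit that took a score of skeletal muscle genes as a covariate.

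S100a4 (ENSMUSG00000001020), which lies 6.84 kb before S100a6 on the same strand, encodes a protein that binds non-muscle myosin and is also known as fibroblast-specific protein. Its levels were 9.31, 4.22, 1.88 and 8.06 CPM in WT 1 to 4 and 110.7, 60.4, 56.3 and 83.0 CPM in db/db 1 to 4. As with S100a6, db/db 1 was the highest library, but the WT libraries were more spread, with 5 to 23 counts each. The log2 fold change was 3.73 ± 0.33 (SE), from 5.87 ± 3.43 to 77.6 ± 25.0 CPM (SD, n = 4 each). There were 3.26 to 17.2 counts of S100a6 for each of S100a4 in WT and 6.29 to 9.17 in db/db, and these ranges overlapped. S100a4 shares 302 exon bases with a readthrough gene, Gm42674, on the same strand, so its count is uncertain in principle; Gm42674 itself had 0 counts in all libraries.

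Both genes are made by macrophages and fibroblasts, and the summed levels of markers of both were higher in db/db. Of 12 macrophage markers, 11 could be tested and 10 rose, with a summed level of 166 to 221 CPM in WT and 792 to 1393 CPM in db/db. All 10 fibroblast and progenitor markers could be tested and 9 rose, from 715 to 859 CPM in WT to 1355 to 2895 CPM in db/db. Of these rises, 3 macrophage markers (Adgre1, Cd68 and Mpeg1) and 2 fibroblast markers (Pdgfra and Pi16) passed the filter only through db/db, where they are high, so the counts of rises describe the lists and support nothing. No marker of either list was at 0 in all WT libraries. For both lists db/db 1 was the highest library, as it was for S100a6 and S100a4. This peak is not particular to either list. Db/db 1 was also highest for the summed markers of monocytes, Schwann cells, skeletal muscle, lymphocytes and mast cells. The part of macrophages and fibroblasts in the S100 levels was not tested.

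S100A10 and S100A11 are the members best known for binding annexins at membranes. S100A10, or p11, holds annexin A2 in a complex and has lost the ability to bind calcium, and S100A11 binds annexin A1 and other annexins. S100a11 (ENSMUSG00000027907, chr3:93520488-93526287) measured 159, 157, 150 and 136 CPM in WT 1 to 4 and 610, 611, 512 and 588 CPM in db/db 1 to 4. The libraries of each genotype were close together and far from those of the other, with a 3.85-fold difference (log2 fold change 1.95 ± 0.13, SE; means 151 ± 10.4 and 580 ± 46.6 CPM, SD, n = 4 each). Processed pseudogenes of S100a11, among them Gm12854 at 99.0% and Gm7665 at 98.7% identity, could share its reads and are not in the table.

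S100a10 (ENSMUSG00000041959) measured 60.3, 62.5, 63.1 and 51.4 CPM in WT 1 to 4 and 179, 179, 160 and 146 CPM in db/db 1 to 4. Again the groups were tight and apart, with a log2 fold change of 1.48 ± 0.14 (SE; means 59.3 ± 5.44 and 166 ± 16.2 CPM, SD, n = 4 each). Its coefficient of variation within db/db, 9.78%, and that of S100a11, 8.02%, were the lowest of the 10 genes. There were 0.195 to 0.271 counts of S100a10 for each of Anxa2 in WT and 0.248 to 0.334 in db/db, again overlapping. Pooled over libraries this ratio was 0.232 in WT and 0.285 in db/db.

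S100B is known from astrocytes and Schwann cells and is also made by adipocytes, including brown adipocytes, where it has been tied to sympathetic innervation. S100b (ENSMUSG00000033208, chr10:76253853-76261159) measured 124, 161, 93.6 and 126 CPM in WT 1 to 4 and 275, 445, 297 and 523 CPM in db/db 1 to 4. The db/db libraries were all higher but spread widely, and db/db 1, the highest for S100a6, was here the lowest. The difference was 3.05-fold (log2 fold change 1.61 ± 0.20, SE; means 126 ± 27.7 and 385 ± 119 CPM, SD, n = 4 each). Dip2a overlaps S100b on the opposite strand without sharing exon bases.

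Of 8 Schwann cell markers, 4 could be tested and 2 rose, among them Pmp22, while the other passed the filter only through db/db. Their summed level was 58.2 to 105 CPM in WT and 129 to 219 CPM in db/db, highest in db/db 1. Most of the difference lay in Pmp22, a myelin gene also made by fibroblasts, at 38.7 CPM in WT and 94.0 CPM in db/db. Mbp, encoding myelin basic protein, averaged 31.1 CPM in WT and 37.2 CPM in db/db and did not pass. None of 8 brown adipocyte markers tested rose and 7 fell, with a sum of 7947 to 9723 CPM in WT and 3322 to 5872 CPM in db/db, whereas 4 of 5 white adipocyte markers rose, with sums of 98.8 to 275 and 1295 to 1427 CPM; of these Mest passed the filter only through db/db. How much of the S100b level came from which cell was not tested.

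S100a1 and S100a13 lie head to head with 42 bases between their annotated ends, so the short stretch shown above lies before the start of both. S100A1 is the S100 protein of heart and skeletal muscle, where it acts on the calcium channel RYR1 and the calcium pump SERCA, and S100A13 takes part in the release of proteins without a signal peptide, such as FGF1 and interleukin 1 alpha. S100a1 (ENSMUSG00000044080, chr3:90511034-90514392) measured 752, 708, 675 and 693 CPM in WT 1 to 4 and 530, 702, 855 and 903 CPM in db/db 1 to 4. WT libraries were close together and fell inside the wider range of db/db, where db/db 1 was the lowest. The log2 fold change was 0.08 ± 0.15 (SE; means 707 ± 32.8 and 748 ± 169 CPM, SD, n = 4 each), and it turned to −0.026 when db/db 4 was left out. Of all libraries, db/db 1 had the lowest S100a1 level, the highest sum of skeletal muscle genes and the lowest sum of brown adipocyte markers. With the muscle score as a covariate the log2 fold change of S100a1 was 0.49 and did not pass. The part of muscle in the S100a1 level was not tested.

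S100a13 (ENSMUSG00000042312, chr3:90514435-90524581) measured 206, 219, 236 and 225 CPM in WT 1 to 4 and 280, 369, 409 and 370 CPM in db/db 1 to 4. It rose 1.61-fold (log2 fold change 0.69 ± 0.14, SE), and db/db 1 was the lowest db/db library, as for S100a1 and S100b. The ratio of S100a13 to S100a1 counts was 0.274 to 0.349 in WT and 0.410 to 0.528 in db/db, so that the genotypes did not overlap. The 2 genes of the shared promoter stretch therefore differed unequally between the genotypes.

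S100a16 (ENSMUSG00000074457), whose protein is broadly made and has been studied in adipocyte formation, showed the smallest rise. It measured 32.0, 29.1, 33.8 and 25.9 CPM in WT 1 to 4 and 63.5, 41.4, 35.5 and 45.0 CPM in db/db 1 to 4, so that the lowest db/db library was only just above the highest WT library. The log2 fold change was 0.62 ± 0.19 (SE). It no longer passed when WT 2, WT 4 or db/db 1 was left out, with log2 fold changes of 0.59, 0.54 and 0.42, or with the muscle score as a covariate, with 0.38.

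S100A8 and S100A9 together form calprotectin, an abundant protein of neutrophils and monocytes that is released in inflammation. S100a8 (ENSMUSG00000056054) measured 0.809, 3.80, 0.376 and 4.67 CPM in WT 1 to 4 and 15.3, 18.5, 12.0 and 17.1 CPM in db/db 1 to 4. In counts this was 2, 9, 1 and 11 against 51, 58, 27 and 46, so that WT 1 and WT 3 lay under the detection level while no db/db library did. The log2 fold change was 2.72 ± 0.45 (SE). Its partner S100a9 (ENSMUSG00000056071) measured 2.43, 6.75, 0 and 7.22 CPM in WT 1 to 4 and 9.63, 6.999, 8.87 and 8.18 CPM in db/db 1 to 4. WT 4 lay above db/db 2, and the WT libraries ranged from 0 to 17 counts. Its log2 fold change of 1.06 ± 0.54 (SE) did not pass with edgeR. It passed with limma-voom, where it was 2.02, and it was 0.60 without WT 3 and 0.22 with the muscle score as a covariate, neither of which passed.

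The balance of the calprotectin genes rests on few counts in WT and was not tested. S100a8 counts were 0.333 to 0.647 times those of S100a9 in the 3 WT libraries with any S100a9 counts, and 1.35 to 2.64 times in db/db, while WT 3 had 1 count of S100a8 and 0 of S100a9. Pooled over libraries the ratio was 0.590 in WT and 1.90 in db/db. Both genes were lowest in WT 3 and highest, within WT, in WT 4.

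None of the 13 neutrophil markers passed the filter, and their summed level was 5.91 to 9.34 CPM in WT and 5.41 to 25.0 CPM in db/db. Mmp9 and Lcn2, neither of them made by neutrophils alone, held most of it, at 4.29 and 0.212 CPM in WT and 3.56 and 5.77 CPM in db/db. Lcn2 had 0 to 2 counts in the WT libraries and 8 to 38 in db/db, without overlap. Cxcr2 and Mpo were at 0 in all WT libraries, and the defining marker Ly6g averaged 0.106 CPM in WT and 0.186 CPM in db/db. Of 6 monocyte markers, F13a1, which macrophages also make, was the only gene that could be tested, and it rose. The sum was 20.7 to 27.1 CPM in WT and 50.1 to 131 CPM in db/db, of which F13a1 alone made up 19.1 and 60.0 CPM on average.

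**Figure D2:**
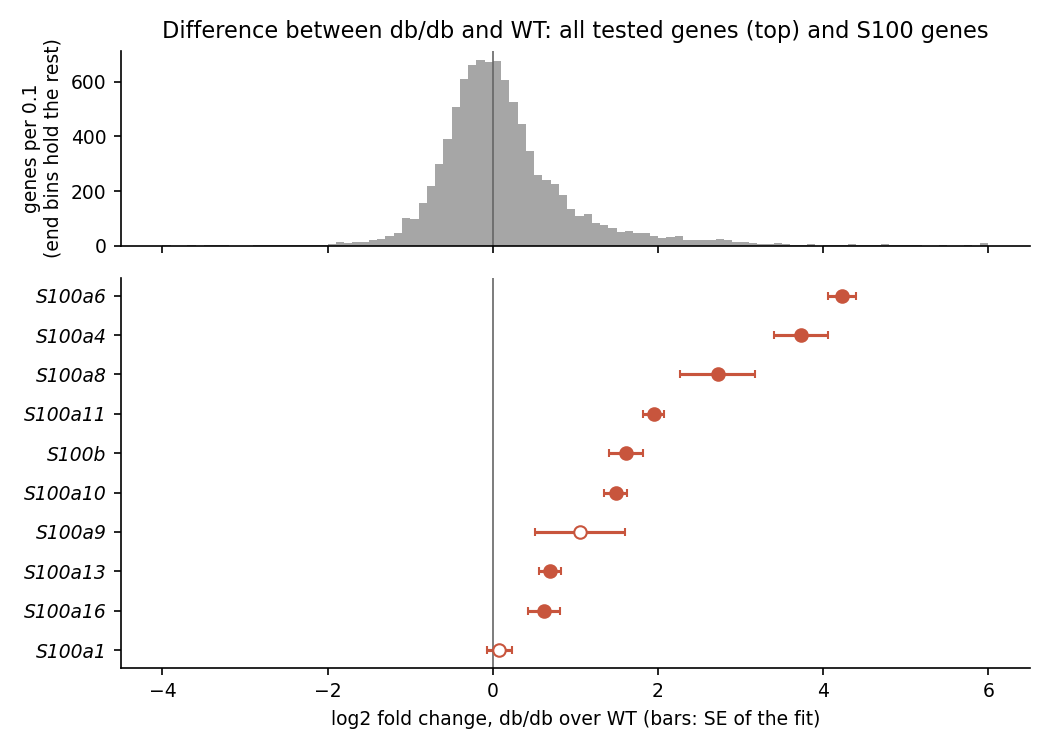
Log2 fold change of db/db over WT for the 9264 genes tested (histogram, number of genes per bin) and for the 10 S100 genes (points, with bars of 1 SE, filled where the adjusted p of the edgeR fit was under 0.05). The S100 genes run from 0.08 for S100a1 to 4.23 for S100a6, while the median of all genes was 0.01.

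The other S100 genes were barely detected. S100a5, S100a7a and S100z had 0 counts in every library. S100a2, S100a3, S100a14 and S100g had 0 counts in WT, and 2, 7, 1 and 11 counts over the 4 db/db libraries together. None of these 7 genes passed the filter, and no fold is given for them.

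Summed over the 10 genes, S100 transcripts took 1338 ± 46.2 CPM in WT and 2968 ± 168 CPM in db/db (SD, n = 4 each), 2.22 times as much. S100a1 held 52.8 ± 1.36% of the S100 counts in WT and 25.1 ± 5.02% in db/db, and S100a6 held 2.33 ± 0.33% in WT and 19.8 ± 4.79% in db/db. In db/db 1 S100a6, at 26.9%, was the most counted member, whereas S100a1 was the most counted in the other 7 libraries. S100a11 went from 11.3% to 19.6% and S100b from 9.40% to 12.8%, while S100a13, which rose in level, went from 16.6% to 12.0% of the sum.

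**Figure D3:**
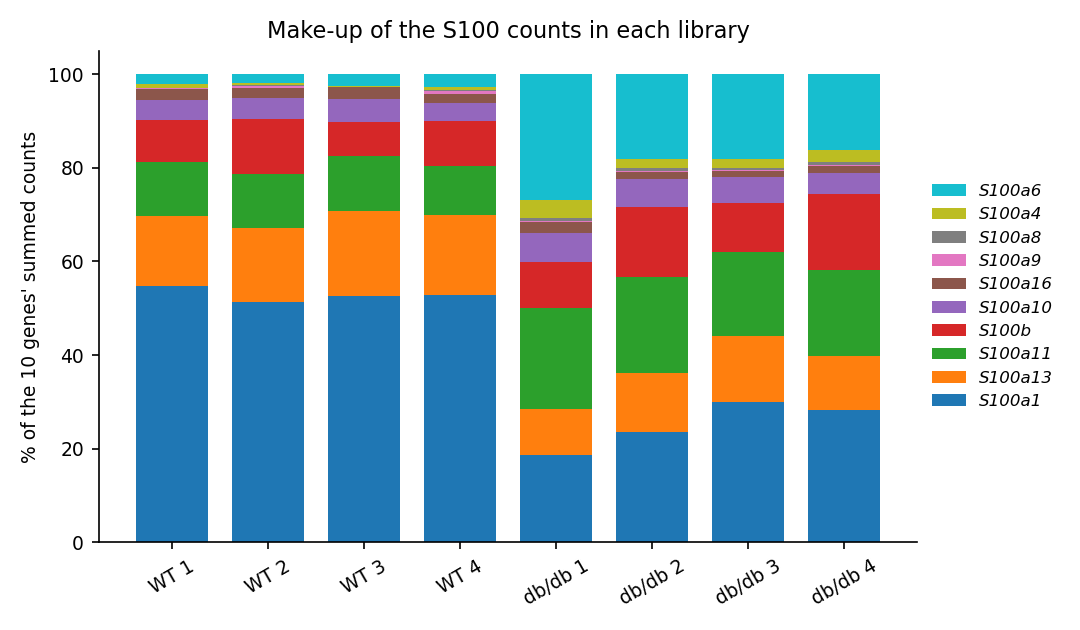
Share of each S100 gene in the summed counts of the 10 genes, in percent, for each library (stacked bars, 1 per library). S100a1 holds 51.4 to 54.6% in WT and 18.7 to 29.9% in db/db, whereas S100a6 expands from 1.93 to 2.68% to 16.3 to 26.9%.

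Levels were divided by exon length to compare genes, which holds only if reads cover the whole transcript. The libraries came from a service named Digital mRNA-seq, and the sources used here do not state whether its reads cover whole transcripts or only their ends, in which case the order below would not apply. In WT the order in CPM per kb was S100a1 (1019), S100a13 (309), S100a11 (295), S100b (85.1), S100a10 (48.9), S100a6 (22.8), S100a16 (18.7), S100a4 (10.05), S100a9 (7.85) and S100a8 (3.48). The ranges over the 4 libraries overlapped between S100a13 and S100a11, between S100a6 and S100a16, and among S100a4, S100a9 and S100a8. In db/db the order was S100a11 (1136), S100a1 (1077), S100a13 (499), S100a6 (427), S100b (259), S100a10 (137), S100a4 (133), S100a16 (28.6), S100a8 (22.6) and S100a9 (16.1). There the neighbours that overlapped were S100a11 with S100a1, S100a13 with S100a6, S100a10 with S100a4, S100a16 with S100a8, and S100a8 with S100a9. In CPM, without exon lengths, S100a1 led in both genotypes and was followed in db/db by S100a6 and S100a11.

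Of the 10 genes, 9 lie on chromosome 3. In the first 184.7 kb block, which holds 12 S100 genes of which 7 are members, the order along the chromosome is S100a1, S100a13, S100a16, S100a4, S100a6, S100a8 and S100a9. S100a11 and S100a10 lie 2.82 Mb further, 28.8 kb apart. The log2 fold changes along the first block were 0.08, 0.69, 0.62, 3.73, 4.23, 2.72 and 1.06, so that the large differences were in the middle, at S100a4 and S100a6. S100a5, which lies between S100a4 and S100a6, had 0 counts in all libraries. S100a3, just before S100a4, and S100a7a, between S100a6 and S100a8, had 7 and 0 counts in db/db.

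**Figure D4:**
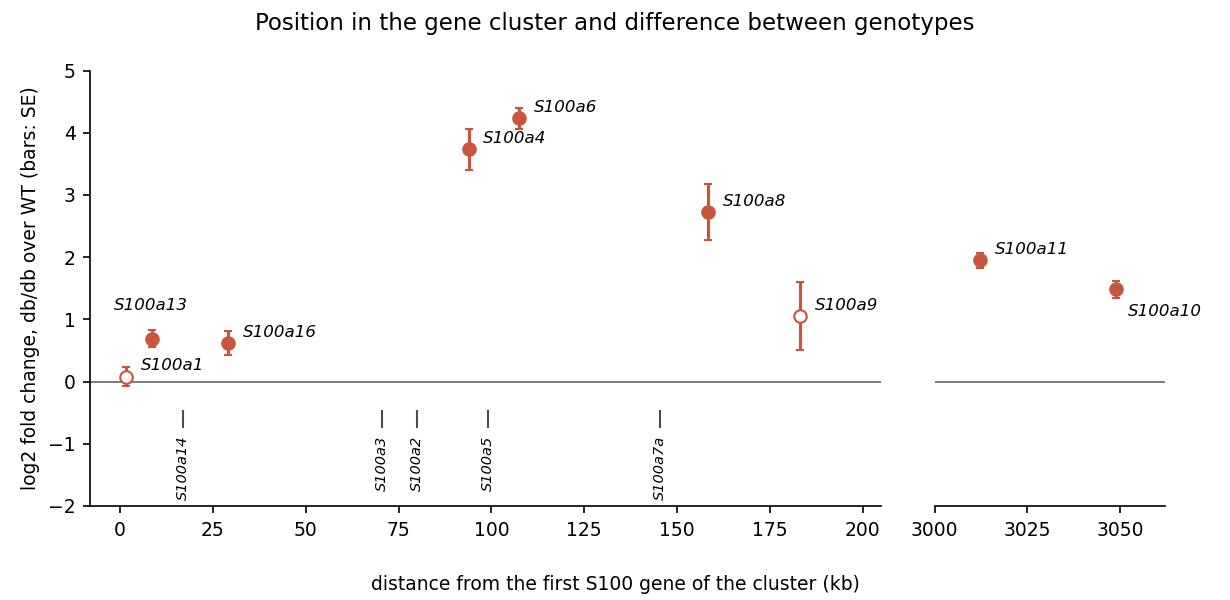
Log2 fold change of db/db over WT against the distance of each gene's middle from the first S100 gene on chromosome 3, in kb, with bars of 1 SE, filled points where the adjusted p was under 0.05 and ticks for S100 genes that could not be tested (the axis is broken between the blocks and keeps its scale). S100a4 at 3.73 and S100a6 at 4.23 stand highest, and S100a1 and S100a13 at the left end lie at 0.08 and 0.69.

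Likeness to S100a6 was measured as the root mean square difference of log2 CPM profiles, each centred over the 8 libraries, for 8679 genes with a mean of at least 5 CPM. Among members S100a4 was the nearest (0.61), followed by S100a8 (1.06), S100a11 (1.14), S100a10 (1.37) and S100b (1.39), and S100a1 was the farthest (2.10). The difference between the genotypes was left in these profiles. The order therefore nearly repeats that of the log2 fold changes and is no separate result. Near it outside the family were Dusp9, a phosphatase of MAP kinases (0.19), Synpo2, an actin-binding protein (0.28), Atp6v0d2, a subunit of the vacuolar proton pump (0.28), and Ccn5, a secreted matrix-associated protein (0.33). Synpo2 averaged 2.95 CPM in WT and 82.6 CPM in db/db. Dusp9 and Ccn5 had 0 counts in WT and averaged 15.3 and 10.4 CPM in db/db, and Atp6v0d2 averaged 0.101 CPM in WT and 14.5 CPM in db/db. For Dusp9, Ccn5 and Atp6v0d2 the prior count added before taking logs largely sets the WT values, and with them the likeness.

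Binding partners and receptors were taken from a list of 26 genes, of which 21 could be tested, 12 rose and 2 fell, with a median log2 fold change of 0.83. Of the 12, Anxa1, Itgb2, Ezr and Itgam passed the filter on low counts only through their db/db libraries, where they are high, so the count supports nothing about the list. Annexin genes were among the rises. Anxa1, encoding a partner of S100A11, measured 1.62, 2.11, 1.88 and 2.55 CPM in WT 1 to 4 and 49.3, 51.9, 27.5 and 25.3 CPM in db/db 1 to 4. Its log2 fold change was 4.22 ± 0.34 (SE), from 4 to 6 counts in each WT library. Anxa2, encoding the partner of S100A10, averaged 257 ± 26.8 CPM in WT and 578 ± 97.3 CPM in db/db (SD, n = 4 each), a log2 fold change of 1.17 ± 0.14 (SE; edgeR adjusted p = 1.06e-05). Anxa6 and Anxa5 rose by 1.14 and 1.03 on the log2 scale. Ahnak, a giant scaffold protein bound by S100A10 with annexin A2, averaged 235 ± 16.6 and 793 ± 96.2 CPM (SD, n = 4 each), a log2 fold change of 1.76 ± 0.13 (SE; edgeR adjusted p = 6.03e-08). Anxa11 was listed at 0 in all libraries, but an antisense gene shares exon bases with Anxa11, so this 0 is uncertain. An antisense gene shares exon bases with Anxa2, and other noncoding genes overlap Anxa1, Anxa2 and Anxa5 without sharing exon bases, so the count of Anxa2 is the more uncertain.

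The cytoskeletal partners Ezr, Capzb and Iqgap1 rose by 1.76, 0.83 and 0.49 on the log2 scale, of which Iqgap1 no longer passed when WT 2, WT 4, db/db 1 or db/db 3 was left out. With each library left out in turn Ezr ranged from 1.52 to 2.34, the upper end without WT 2. Genes on the opposite strand share exon bases with Ezr and Iqgap1, whose counts are uncertain. Myh9, encoding the myosin bound by S100A4, had a log2 fold change of 0.41 ± 0.15 (SE) and did not pass (edgeR adjusted p = 0.0528). The partners that fell were both known for binding S100A6, whereas annexin genes, whose proteins it also binds, were among the rises above. Cacybp, encoding calcyclin-binding protein, measured 48.2, 45.6, 54.1 and 56.0 CPM in WT 1 to 4 and 34.9, 40.7, 29.3 and 34.6 CPM in db/db 1 to 4 (log2 fold change −0.54 ± 0.16, SE; edgeR adjusted p = 0.0168). Sugt1, a co-chaperone, fell by 0.61 on the log2 scale, from 167 ± 31.3 to 110 ± 13.3 CPM (SD, n = 4 each; edgeR adjusted p = 0.00608). Every db/db library was below every WT library for both genes. Cacybp no longer passed without WT 4 or without db/db 3, with −0.51 and −0.48.

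Among receptors, Tlr4 and Ager did not pass the filter. Tlr4 measured 0.844 to 2.63 CPM in WT and 2.98 to 5.73 CPM in db/db, without overlap, on 2 to 7 and 8 to 18 counts. Ager measured 0.405 to 1.503 and 0.301 to 3.10 CPM and overlapped. The leukocyte genes of the list rose, Itgb2 by 4.73, Itgam by 2.18 and Cybb by 2.09 on the log2 scale, together encoding an integrin of myeloid cells and a subunit of the phagocyte oxidase. Itgam shares exon bases on the same strand with the protein-coding Gm49368, and its count is uncertain. Itgb2 had 0 to 2 counts in the WT libraries, under the detection level, and 25 to 42 in db/db, so its fitted log2 fold change rests on few counts and is no bound. Cd36, a fatty acid receptor that also binds S100A8 with S100A9, rose by 0.49 on the log2 scale, from 403 ± 30.6 to 565 ± 79.6 CPM (SD, n = 4 each; edgeR adjusted p = 0.0108), but did not pass without WT 2. Of the calcium handling partners of S100A1, Ryr1 and Atp2a2 did not pass, and Pln was near 0. Atp2a1, the SERCA of skeletal muscle and a gene of the muscle marker list, averaged 58.7 CPM in WT and 266 CPM in db/db and was highest in db/db 1; it rose with a log2 fold change of 2.18 ± 0.37 (SE; adjusted p of edgeR 0.000261). With the muscle score as a covariate 7 partners rose and 0 fell, among 433 and 152 genes in all. The genes that no longer passed kept their directions, with log2 fold changes of −0.54 for Cacybp, −0.42 for Sugt1, 0.70 for Capzb, 1.34 for Ezr, 1.51 for Itgam, 0.37 for Cd36 and 0.32 for Iqgap1.

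**Figure D5:**
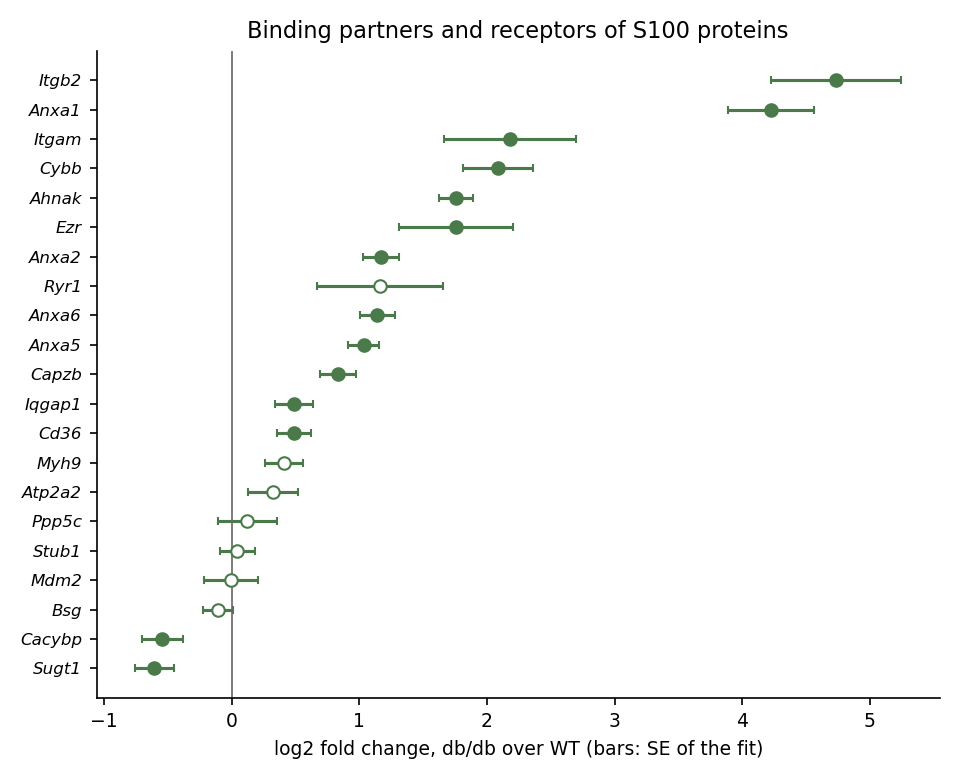
Log2 fold change of db/db over WT for the 21 binding partners and receptors that could be tested, with bars of 1 SE, filled where the edgeR adjusted p was under 0.05. Itgb2 at 4.73, with WT under the detection level, and Anxa1 at 4.22 stand highest, and Cacybp at −0.54 and Sugt1 at −0.61 are the genes that fell.

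Calcium-binding genes with EF-hands outside the family were compared from a list of 28. Of the 23 that could be tested, 10 rose and 0 fell with edgeR (0 also with DESeq2 and limma-voom, and 0 at an unadjusted p under 0.05), with a median log2 fold change of 0.55. Across all genes tested, 15.8% passed as higher and 11.9% as lower. Of the 10, Nucb2 and Rcn3 passed the filter only through their db/db libraries, so the count supports nothing about the list. The largest rises were those of Nucb2, the precursor of nesfatin (1.84 ± 0.35, SE), Efhd2 (1.42 ± 0.24) and Rcn3, a reticulocalbin of the secretory pathway (1.32 ± 0.34). With the muscle score as a covariate 3 genes of the list rose, among 433 genes that rose in all. Nucb2, Efhd2 and Rcn3 were not among the 3, with log2 fold changes of 1.45, 1.37 and 0.74. An antisense gene shares exon bases with Rcn3. Efhd1, which did not pass the filter, had 0 to 3 counts in the WT libraries and 7 to 19 in db/db.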

How the data were processed

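Single-end RNA-seq libraries of BAT from 4 WT and 4 db/db mice were grouped by their titles. The authors deposited raw counts per Ensembl gene. Their methods name bbduk, STAR, mm10 and HTSeq-count, whereas the submitters' processing notes name Trimmomatic, HISAT2, GRCm38 and mm10. Strand setting and treatment of PCR copies are not given in the sources used here. The authors' normalized values and sample sheet were not used.

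Of 31053 identifiers, 31011 matched GENCODE M21 on the same build. Genes were filtered with filterByExpr (minimum count 10, minimum total 15), leaving 9264, scaled by TMM and fitted by genotype alone in edgeR 4.0.16 (R 4.3.3), whose quasi-likelihood F test was used with Benjamini-Hochberg adjustment over all genes and a threshold of 0.05. CPM values use TMM-scaled library sizes, and centred profiles used a prior count of 2. SE values were derived from the F statistic. Pairs of libraries of a genotype differed by more than counting error. Detection levels cover counting error only. Alternatives were DESeq2 1.42.0, limma-voom (limma 3.58.1), other scalings and filters, the replicate block, a muscle score covariate and leaving out each library. The procedure was tested on simulated data. Near-identical genes were sought with BLAST 2.17.0, and figures drawn with matplotlib 3.10.9.

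The members and lists were chosen with earlier results of these data known. Named were all members, the remaining S100 genes, partners that passed with Ager and Tlr4, the 3 largest changes each way of the EF-hand list, the 5 genes most like S100a6 and the 2 most abundant genes of each marker list. Genes outside this rule (Myh9, Ryr1, Atp2a2, Atp2a1, Efhd1, Pln, Plin1, genes that passed the filter through a single genotype, Anxa11, and Pmp22, Mbp, Ly6g, Cxcr2 and Mpo as markers) were named after their values were seen. Some genes that the rule selects are not reported here.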

Additional observations from a re-analysis of the deposited data

Results flagged for a closer look

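Of 54 sets of 4 libraries examined, 5 held a library far from the others of its genotype, where chance gives about 2.7. S100a6 measured 762 CPM in db/db 1, against 516 to 536 CPM in the other db/db libraries. The same library had the highest summed monocyte markers, 131 CPM against 50.1 to 55.1 CPM, and the highest summed lymphocyte markers, 12.6 CPM against 0.636 to 1.12 CPM. The summed red blood cell markers were 17009 CPM in db/db 4, against 6472 to 7024 CPM in the other db/db libraries. The summed neutrophil markers were 9.34 CPM in WT 4, against 5.91 to 6.47 CPM in the other WT libraries. These sums rest on few counts, with Mmp9 at 13 counts in WT 4 and 9 to 11 in the other WT libraries. WT 4 also had the highest S100a8 and S100a9 levels of the WT libraries, on 11 and 17 counts, and a link was not tested.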

How the results depend on the processing

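Over 17 alternatives, 161 of 167 values of single S100 genes kept their direction and their side of the threshold. S100a1, which did not pass, ranged from −0.026 to 0.21 (log2 fold change) when each library was left out, the lower end without db/db replicate 4; S100a16 and S100a9 changed sides as given above. Of the 10 members, 8 passed as higher with edgeR, 9 with limma-voom, 6 with a minimum of 10 counts in every library, which left S100a4, S100a8 and S100a9 untested, 7 with the muscle score as a covariate, and 7 to 8 when each library was left out. With that covariate 585 genes differed, 433 higher and 152 lower, against 2568, 1466 and 1102 without it. Of the partners and receptors 7 then rose and 0 fell, and of the other EF-hand genes 3 rose. Leaving out each library gave 1 to 2 partners that fell, with 1 without WT replicate 4 and without db/db replicate 3. The muscle score itself differed between the genotypes, so its term and the genotype share variation. Replicate numbers 1 to 4 occur in both genotypes but name different mice. Deviations of libraries with the same number correlated at −0.08 to 0.05. WT 1 and db/db 1 were each other's best match, at 0.04. These low values show no pairing of the samples, but they cannot exclude preparation in batches by number. With the replicate block 2557 genes differed, 8 members and 13 partners rose. Depth limits S100a8, S100a9 and S100a4 in WT, where libraries held 0 to 23 counts of each.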

Other observations

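Further marker lists describe the tissue in which the S100 genes were measured. Of 8 lipid-associated macrophage markers tested, 7 rose, with summed levels of 846 to 985 CPM in WT and 1604 to 1920 CPM in db/db, mostly from Ctsb and Cd63; of the 7, Trem2 and Cd9 passed the filter on low counts only through db/db. Of 6 general adipocyte markers, Plin1 and Fabp4 rose and 0 fell with edgeR (0 at an unadjusted p under 0.05), and Adipoq did not pass. Fabp4 and Adipoq averaged 7789 and 1534 CPM in WT and 12193 and 1909 CPM in db/db. Of 8 endothelial markers, 0 rose and 3 fell, with sums of 427 to 480 CPM in WT and 312 to 379 CPM in db/db, and 2 of the falls, Tek and Emcn, passed the filter only through WT. Of 5 red blood cell markers 1 rose. The 12 skeletal muscle markers that could be tested rose, with Acta1 and Tnnc2 the most abundant, and Myh2 and Casq1 passed the filter only through db/db. For each list such counts describe the genes that passed and support nothing. The epithelial and keratinocyte, mast cell and lymphocyte lists had 1, 1 and 0 genes that could be tested, none of which passed. Krt5, Krt14, Krt1, Krt8 and Krt18, made by epithelial cells, were at 0 in all libraries.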
